A study of Mus musculus with 16 samples.

Results

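A set of 9 genes that astrocytes use to clear glutamate, buffer potassium and move water was examined in green cells sorted from the mouse neocortex at postnatal day (P) 4: the glutamate transporters Slc1a3 and Slc1a2, glutamine synthetase (Glul), the inward rectifier potassium channel Kcnj10, the sodium pump subunit Atp1b2, the water channel Aqp4, the gap junction proteins Gja1 and Gjb6, and the sodium bicarbonate cotransporter Slc4a4. They were taken by gene symbol from a list chosen for function and not by their measured values, although earlier results of these data were known. All 9 were found once among the 53379 genes of the count files. The study asked which functions of Eed, a core subunit of the histone methylating Polycomb repressive complex 2 (PRC2), astrocytes require in a cell-autonomous manner, and compared Eed-/- with Eed+/+ astrocytes and neurons. Cells came from mice labelled strain CD1 and carrying the mosaic analysis with double markers cassettes on chromosome 7 (MADM7-GT/TG), Emx1-cre, which acts in cortical progenitors, and the XGFAP-lacZ transgene, in which the human GFAP promoter drives lacZ. In control-MADM animals (labelled wt) the green cells were Eed+/+, and in Eed-MADM animals (labelled het, libraries titled mosaic) they were Eed-/- within a mostly heterozygous cortex. Green cells positive for lacZ were collected as astrocytes and green cells without lacZ as neurons, so that the neuron sort was defined by the absence of the astrocyte stain. Cre, lacZ and the MADM cassettes were shared by all groups, and green cells of both genotypes carry 2 paternal copies of chromosome 7. None of the 9 genes lies on chromosome 7. Each astrocyte replicate was 1 animal, both sexes were used, and the sources used here do not say which library came from which sex.

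Astrocytes take up the glutamate that neurons release, convert it to glutamine and return it to the neurons. Their membranes are highly permeable to potassium, which they take up where neurons are active and spread through gap junctions to neighbouring astrocytes, and water and bicarbonate move across the same membranes. These functions mature during the first postnatal weeks, so that P4 cells are immature astrocytes.

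The libraries comprised 5 of Eed+/+ astrocytes, 5 of Eed-/- astrocytes, 2 of Eed+/+ neurons and 3 of Eed-/- neurons, and 1 further library whose title and cell type label disagree was kept out of all comparisons. Reads assigned to genes ranged from 211736 to 3178529 per library with a group, and 26.1% to 76.6% of reads aligned uniquely. Of the 15 libraries, 10 had at least 60% and at least 1000000 uniquely aligned reads, the limits that the study states for its embryonic libraries. The 5 libraries outside these limits were Eed-/- astrocyte replicates 1, 3 and 4, Eed+/+ astrocyte replicate 3 and Eed+/+ neuron replicate 2, and the main comparisons are therefore given with and without them. The study left out some P4 libraries by other criteria and did not name them, so that these limits do not stand for its own exclusions. Levels below are counts per 1000000 gene reads scaled by the trimmed mean of M values (CPM), and those of the targeted gene Eed, counted over the whole gene and not only its deleted part, were 3.71 to 76.2 in Eed+/+ astrocytes, 0 to 17.3 in Eed-/- astrocytes, 64.9 to 81.1 in Eed+/+ neurons and 16.4 to 38.0 in Eed-/- neurons. In bulk samples like these, fewer cells of a type and less RNA per cell cannot be told apart.

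Slc1a3 carried the most RNA per length of the 9 genes in both sorts. Over the 6 astrocyte libraries within the limits, the mean level per kilobase of exon was 668 ± 272 for Slc1a3 (SD, n = 6), 410 ± 192 for Atp1b2, 293 ± 107 for Aqp4, 181 ± 69.6 for Glul, 172 ± 80.7 for Slc1a2, 121 ± 58.6 for Gja1, 50.8 ± 8.45 for Slc4a4, 47.5 ± 22.7 for Kcnj10 and 11.7 ± 13.7 for Gjb6. Between neighbours in this order the ranges of mean ± SD overlapped, apart from Gja1 and Slc4a4. The order itself held within each of the 6 libraries for Slc1a3 above Atp1b2, Aqp4 above Glul and Kcnj10 above Gjb6, but in only 3 of 6 for Glul above Slc1a2 and 4 of 6 for Slc4a4 above Kcnj10. Among 13354 genes with an exon length, Slc1a3 ranked 40 and Gjb6 4506 in these astrocytes. The 4 neuron libraries within the limits had the same top 3, with 280 ± 40.1 per kilobase for Slc1a3 (SD, n = 4), 155 ± 48.5 for Atp1b2 and 96.9 ± 20.9 for Aqp4, and Gjb6 was again lowest at 6.93 ± 4.73. Slc1a3 still ranked 114 of 13354 in the neuron sort.

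**Figure D1:**
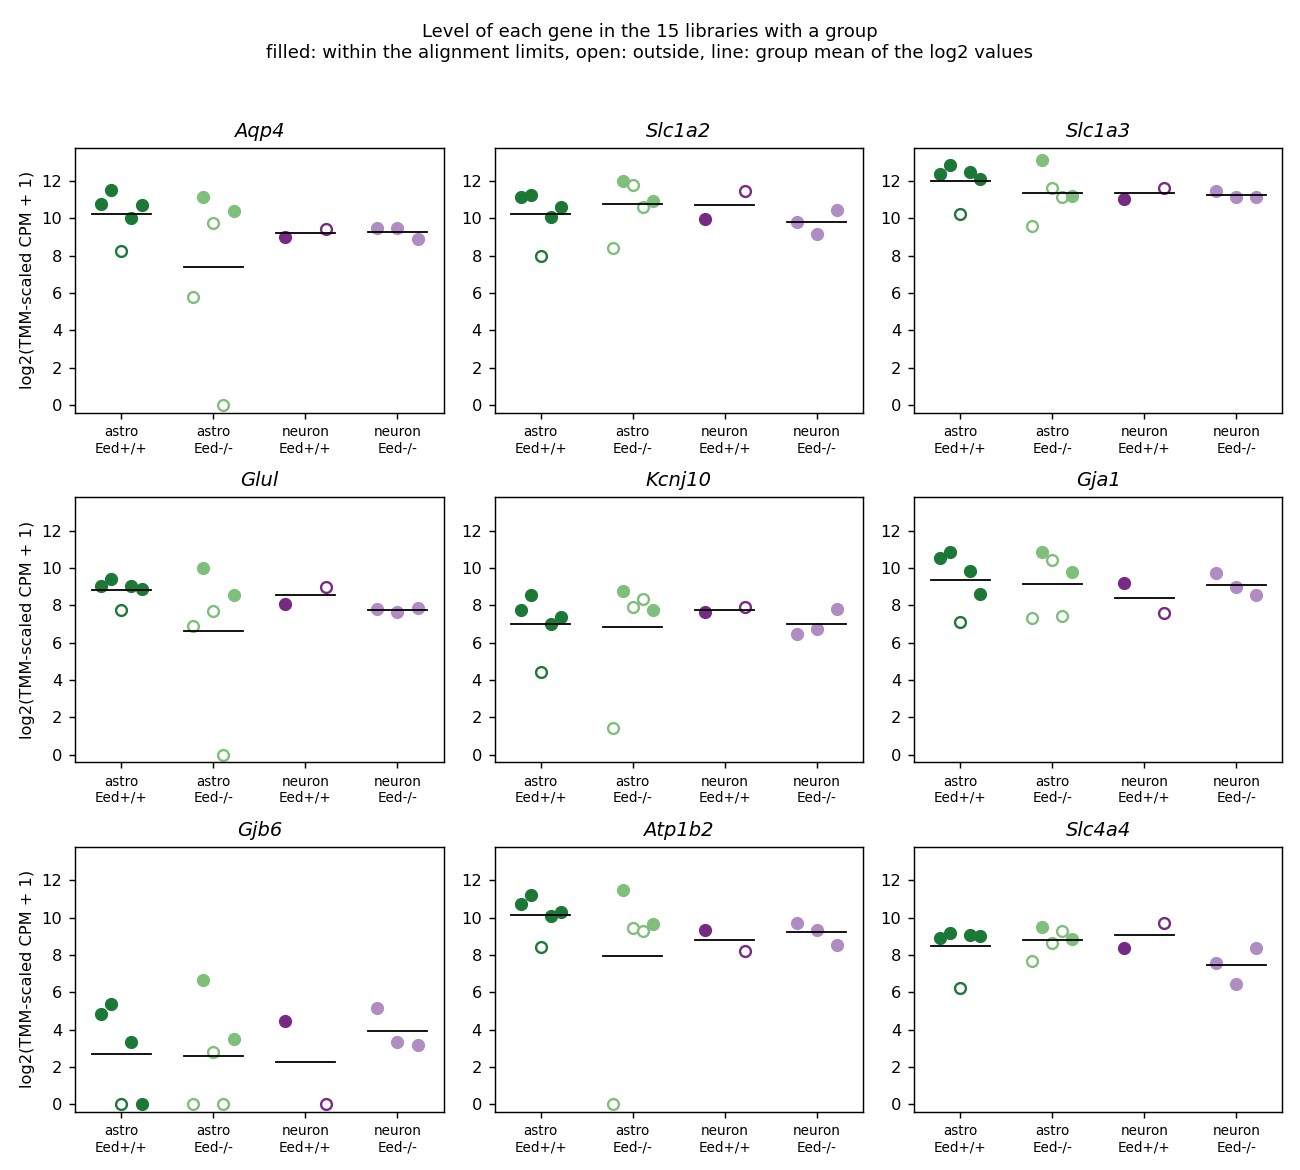
Level of each gene in the 15 libraries with a group, as log2(CPM + 1) on the y axis, with libraries grouped on the x axis by cell type and genotype; filled points are libraries within the alignment limits, open points are those outside, and lines are group means of the plotted values. The open points spread furthest, with Aqp4 and Glul at 0 reads in Eed-/- astrocyte replicate 4 and Atp1b2 at 0 in Eed-/- astrocyte replicate 1, and Gjb6 is low in every group.

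Slc1a3 (GLAST; GRCm38 chromosome 15, 8634124 to 8710764, minus strand) is the main glutamate transporter of immature astrocytes and radial glia. Its level in Eed+/+ astrocyte replicates 1 to 5 was 5270, 7569, 1188, 5677 and 4438 CPM, and in Eed-/- astrocyte replicates 1 to 5 it was 787, 8921, 3141, 2280 and 2326 CPM. In Eed+/+ neurons it was 2124 and 3190 CPM, and in Eed-/- neurons 2892, 2305 and 2242 CPM. The neuron libraries fell inside the range of the astrocyte libraries, which spanned more than 10-fold. Across both genotypes the log2 difference between astrocytes and neurons was 0.67 (SE 0.69) over 15 libraries and 1.28 (SE 0.42) over the 10 within the limits.

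Slc1a2 (GLT-1; chromosome 2, 102658659 to 102790784, plus strand) is the transporter that dominates in mature cortex. Eed+/+ astrocytes had 2288, 2460, 254, 1078 and 1589 CPM and Eed-/- astrocytes 338, 4171, 3501, 1554 and 1983 CPM. Eed+/+ neurons had 1016 and 2822 CPM and Eed-/- neurons 893, 580 and 1416 CPM. The 2822 CPM of Eed+/+ neuron replicate 2, a library outside the limits, exceeded 8 of the 10 astrocyte libraries, and the log2 difference between astrocytes and neurons was 0.47 (SE 0.74) over 15 libraries, 0.92 (SE 0.97) without that library alone and 1.25 (SE 0.41) within the limits.

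Glul (chromosome 1, 153899944 to 153909723, plus strand) makes glutamine from glutamate and ammonia. The astrocyte levels were 526.2, 691, 215, 525 and 470 CPM in Eed+/+ and 117, 1022, 207, 0 and 369 CPM in Eed-/- cells, and the neuron levels 268 and 509 CPM in Eed+/+ and 223, 197 and 233 CPM in Eed-/- cells. A count of 0 in Eed-/- astrocyte replicate 4, the shallowest library with a group, allows up to 14.2 CPM before scaling (3 reads; counting error only). Within the limits, all 6 astrocyte libraries (369 CPM and above) lay above all 4 neuron libraries (268 CPM and below), with a log2 difference of 1.33 (SE 0.37). Over 15 libraries the groups overlapped and the difference was 0.48 (SE 0.89), and without Eed-/- astrocyte replicate 2 it was 0.028.

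The promoter sequences of Slc1a3, Glul and Kcnj10 are shown because the first has few CpG dinucleotides and the others many, and CpG-rich promoters are the usual sites of PRC2 in mammals. The 250 bases before the RefSeq start are printed 5′ to 3′ on the strand of the gene with CpG in capitals, from the RefSeq table of build GRCm38.p6. They lie at chr15:8710808-8711057 (minus strand) for Slc1a3, chr1:153899679-153899928 (plus strand) for Glul and chr1:172340960-172341209 (plus strand) for Kcnj10.
Slc1a3: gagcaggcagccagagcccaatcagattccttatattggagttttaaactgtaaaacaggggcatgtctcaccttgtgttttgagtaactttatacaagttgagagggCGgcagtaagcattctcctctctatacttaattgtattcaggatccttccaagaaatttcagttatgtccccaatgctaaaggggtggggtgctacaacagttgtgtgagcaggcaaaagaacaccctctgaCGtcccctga
Glul: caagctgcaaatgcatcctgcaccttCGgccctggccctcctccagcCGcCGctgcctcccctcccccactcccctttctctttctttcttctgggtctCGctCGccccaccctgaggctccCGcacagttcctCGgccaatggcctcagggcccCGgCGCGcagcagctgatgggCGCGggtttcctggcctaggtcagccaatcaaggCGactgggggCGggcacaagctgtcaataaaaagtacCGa
Kcnj10: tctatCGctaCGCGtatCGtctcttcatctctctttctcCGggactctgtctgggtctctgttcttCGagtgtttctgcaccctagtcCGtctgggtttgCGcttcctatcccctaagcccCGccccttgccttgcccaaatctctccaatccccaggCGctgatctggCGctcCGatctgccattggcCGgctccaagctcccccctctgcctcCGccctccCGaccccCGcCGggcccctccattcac
The printed stretches hold 2 CpG in Slc1a3, 15 in Glul and 17 in Kcnj10. Counted in windows from 250 bases before to 50 after the start, 8 windows were found for 7 of the 9 genes (Slc4a4 had 2, and none was used for Aqp4 and Atp1b2), with 1 CpG in Slc1a2, 3 in Slc1a3, 6 in Gjb6, 8 in Gja1, 17 in Glul, 21 in Kcnj10 and 3 and 50 in the 2 windows of Slc4a4. Their median of 7 equals the median of 7 over all 32851 windows in the table. These 3 motifs were searched on both strands: the nuclear factor I motif TTGGCA was in 0 of the 8 windows and 14.1% of all windows, the STAT site TTCNNNGAA in 1 and 8.30%, and the SOX core ACAAT in 1 and 31.0%. Both matches were in Slc1a3, as TTCCAAGAA and ATTGT. A match describes letters only, and the RefSeq starts used for Slc1a2 and Slc4a4 lie inside the annotated genes.

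Kcnj10 (Kir4.1; chromosome 1, 172341210 to 172374085, plus strand) is the potassium channel that sets the resting potential of astrocytes. Its level was 216, 379, 20.4, 128 and 165 CPM in Eed+/+ astrocytes and 1.69, 435, 236, 324 and 217 CPM in Eed-/- astrocytes. In neurons it was 199 and 237 CPM in Eed+/+ and 86.8, 105 and 225 CPM in Eed-/- cells. The 5 neuron libraries lay inside the range of the 10 astrocyte libraries. Within the limits, Eed-/- neuron replicates 1 and 2 were below all 6 astrocyte libraries and the other 2 neuron libraries were among them. The log2 difference was 0.27 (SE 0.96) over 15 libraries and 0.67 (SE 0.44) within the limits, the smallest of the 9 genes in both.

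Atp1b2 (chromosome 11, 69599736 to 69605942, minus strand) encodes the beta subunit of the glial sodium pump, which takes up potassium. Eed+/+ astrocytes had 1719, 2368, 342, 1093 and 1251 CPM, and Eed-/- astrocytes 0, 2816, 685, 615 and 796 CPM. Neurons had 651 and 300 CPM in Eed+/+ and 856, 656 and 374 CPM in Eed-/- cells. Within the limits only the 796 CPM of Eed-/- astrocyte replicate 5 fell below a neuron library, the 856 CPM of Eed-/- neuron replicate 1. The log2 difference was 1.08 (SE 0.82) over 15 libraries and 1.39 (SE 0.47) within the limits.

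Aqp4 (chromosome 18, 15389496 to 15410982, minus strand), the water channel of astrocyte endfeet, had 1728, 2896, 308, 1043 and 1704 CPM in Eed+/+ astrocytes and 54.1, 2252, 877, 0 and 1330 CPM in Eed-/- astrocytes. Neurons had 516 and 693 CPM in Eed+/+ and 709, 722 and 469 CPM in Eed-/- cells. All neuron libraries were thus between 469 and 722 CPM, while astrocyte libraries within the limits started at 1043 CPM and 3 of the 4 outside them were at 308 CPM or below. The log2 difference of 0.92 (SE 0.81) over 15 libraries was 1.64 (SE 0.40) within the limits, the largest of the 9 there, and the 0 of Eed-/- astrocyte replicate 4 again allows up to 14.2 CPM.

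Gja1 (connexin 43; chromosome 10, 56377330 to 56402513, plus strand) and Gjb6 (connexin 30; chromosome 14, 57123303 to 57133611, minus strand) form the astrocyte gap junctions. Gja1 had 1493, 1886, 136, 915 and 383 CPM in Eed+/+ astrocytes and 159, 1845, 1379, 170 and 896 CPM in Eed-/- astrocytes. In neurons it had 592 and 194 CPM in Eed+/+ and 851, 502 and 381 CPM in Eed-/- cells. Astrocyte libraries lay on both sides of the neuron libraries, and within the limits only the 383 CPM of Eed+/+ astrocyte replicate 5 overlapped them, with a log2 difference of 0.96 (SE 0.84) over 15 and 1.09 (SE 0.49) over 10 libraries.

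Gjb6, the connexin that appears later in maturation, had 27.2, 41.1, 0, 9.23 and 0 CPM in Eed+/+ astrocytes and 0, 99.7, 5.90, 0 and 10.1 CPM in Eed-/- astrocytes. Neurons had 21.5 and 0 CPM in Eed+/+ and 35.2, 9.24 and 8.18 CPM in Eed-/- cells. No read was found in 5 of the 15 libraries, where 3 reads correspond to between 1.85 and 14.2 CPM before scaling, so that Gjb6 was near the detection limit and its log2 difference of 0.45 (SE 1.28), or 0.74 (SE 1.13) within the limits, was smaller than its error.

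Slc4a4 (NBCe1; chromosome 5, 88886818 to 89239653, plus strand) moves bicarbonate with sodium. Eed+/+ astrocytes had 483, 579, 74.3, 531 and 512 CPM and Eed-/- astrocytes 203, 719, 393, 624 and 471 CPM. Eed+/+ neurons had 338 and 855 CPM and Eed-/- neurons 192, 87.2 and 326 CPM. The 855 CPM of Eed+/+ neuron replicate 2 was the highest of all 15 libraries. Without the libraries outside the limits, all 6 astrocyte libraries (471 CPM and above) lay above all 4 neuron libraries (338 CPM and below), and the log2 difference rose from 0.40 (SE 0.88) to 1.08 (SE 0.39).

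All 9 genes had a fitted level higher in astrocytes than in neurons, but none passed the test. In edgeR's quasi-likelihood fit over 15 libraries the median log2 difference was 0.48 for the 9 genes (0.27 to 1.08) and -0.34 for the 13367 genes tested, of which 36.0% were above 0. The adjusted p was 0.9999 for each of the 9 in edgeR, so 0 of 9 were called, beside 2 of 13367 genes (0.015%). At an unadjusted p under 0.05 the counts were 0 of 9 and 736 (5.51%). A test that misses the threshold does not show equal levels. With the 10 libraries within the limits the median became 1.25 for the 9 genes (0.67 to 1.64) and -0.16 for all 14445 genes, of which 42.2% were above 0. The edgeR adjusted p of the 9 genes then ranged from 0.500 to 0.927, and 0 of 9 and 0 of 14445 genes (0%) were called. Of the 9, 7 genes, all but Kcnj10 and Gjb6, had an unadjusted p under 0.05, beside 1111 of 14445 genes (7.69%).

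**Figure D2:**
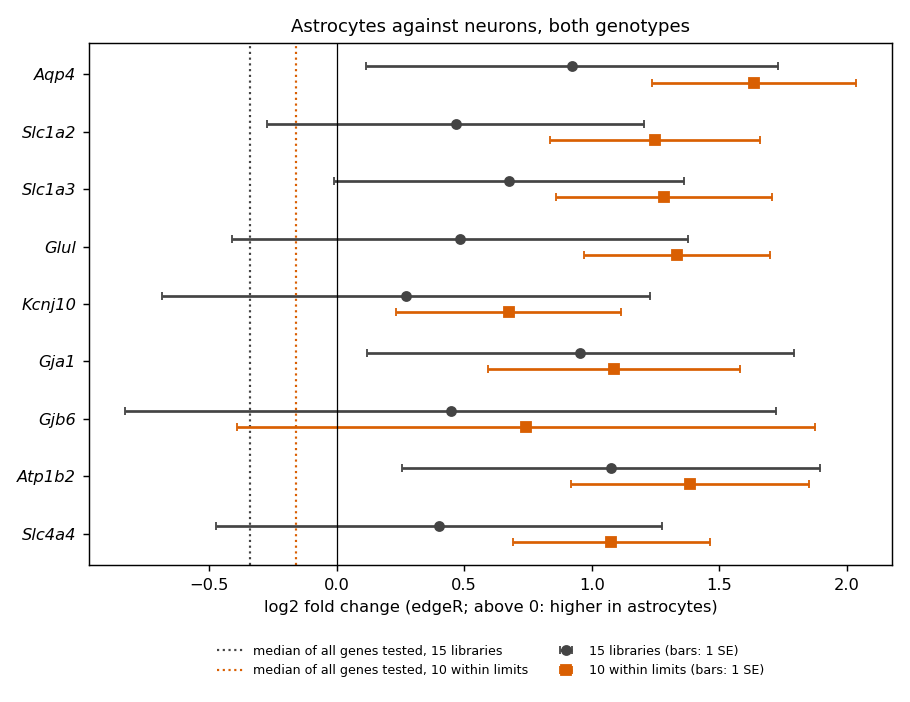
Log2 fold change of each gene between astrocytes and neurons over both genotypes (x axis, above 0 higher in astrocytes), fitted over 15 libraries (circles) and over the 10 within the alignment limits (squares), with bars of 1 SE and dotted lines at the medians of all genes tested (-0.34 and -0.16). All 18 points lie above 0, between 0.27 and 1.64, and the bars are shorter within the limits.

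The ranges of libraries gave a like picture. In 0 of the 9 genes were all 10 astrocyte libraries above all 5 neuron libraries, as in 3 of 13367 genes (0.0224%), and within the limits this held for 3 of the 9, Aqp4, Glul and Slc4a4, beside 206 of 13367 genes (1.54%). Library numbers in the file names fall into 2 runs, and among libraries with a group the second holds astrocytes alone. Among the 10 libraries of the first run the median log2 difference between astrocytes and neurons was 1.08 for the 9 genes and -0.42 for all genes, and no gene was called. Within one genotype, 6 of the 9 genes had a positive difference in Eed+/+ and 9 of 9 in Eed-/- cells. The exceptions in Eed+/+ cells were Slc1a2, Kcnj10 and Slc4a4. Within the limits, where 1 library stood for Eed+/+ neurons, 8 of 9 were positive in Eed+/+ cells, all but Gjb6, and 9 of 9 in Eed-/- cells. None of the 9 was called in Eed+/+ cells (1 of 13367 genes, 0.00748%), in Eed-/- cells (8 of 13367, 0.0598%) or for the interaction of genotype with cell type (7 of 13367, 0.0524%).

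Much of the RNA of these genes was thus also present in the neuron sorts. Summed over the 9 genes, the mean neuron level was 64.1% of the mean astrocyte level in Eed+/+ and 60.6% in Eed-/- cells, or 42.3% and 38.2% within the limits. Gene by gene and over both genotypes, the neuron level within the limits was 33.1% of the astrocyte level for Aqp4, 37.9% for Atp1b2, 38.3% for Glul, 41.9% for Slc1a3, 42.9% for Slc4a4, 43.2% for Slc1a2, 47.0% for Gja1, 59.3% for Gjb6 and 60.02% for Kcnj10. Over all 15 libraries these shares ran from 48.6% for Atp1b2 to 80.4% for Kcnj10. The reads of the 9 genes together made up 0.489% to 0.820% of gene reads in the 5 neuron libraries, 0.286% to 1.59% in Eed+/+ astrocytes and 0.256% to 1.77% in Eed-/- astrocytes.

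**Figure D3:**
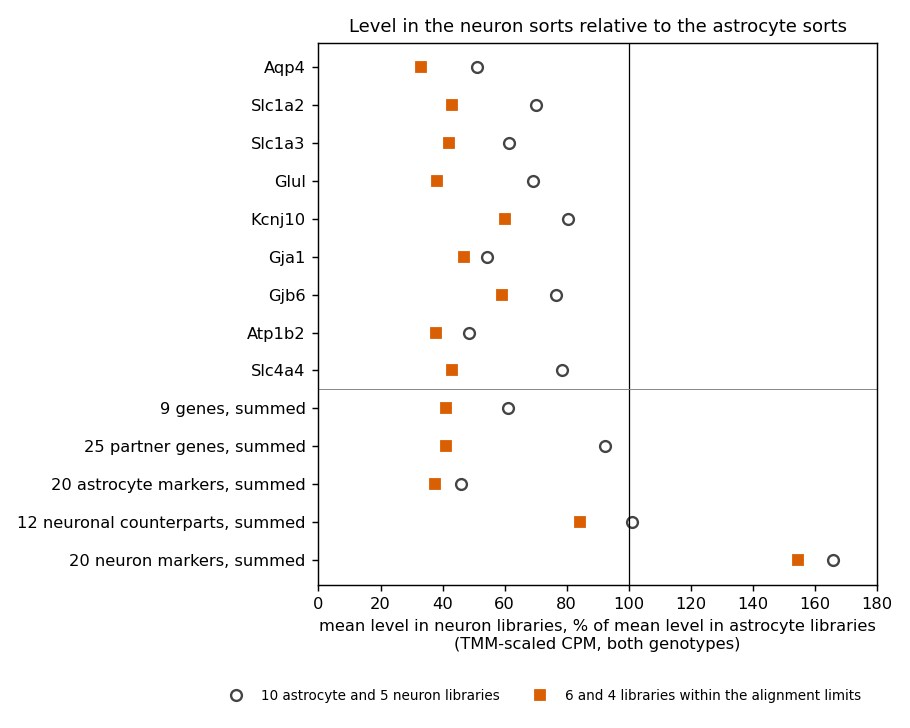
Mean level in the neuron libraries as a percentage of the mean level in the astrocyte libraries (x axis, both genotypes), for each of the 9 genes and for sums over gene lists, with all libraries (open circles) and those within the alignment limits (squares); the line marks equal levels. The 9 genes lie between 33.1% and 60.02% within the limits, next to the astrocyte markers at 37.5%, while the neuron markers lie at 155%.

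The neuron sorts also held astrocyte markers outside the 9 genes. A list of 20 such markers, among them Aldoc and Aldh1l1, had 17 genes with a positive log2 difference and 0 called, and within the limits 19 and 0. They summed to 7972 to 101577 CPM in astrocyte and 8333 to 33176 CPM in neuron libraries, and the neuron mean was 46.0% of the astrocyte mean, or 37.5% within the limits. All 20 had reads in 4 of the 5 neuron libraries, and 19 in Eed+/+ neuron replicate 2. In that library the 9 genes stood at 83.8% of the astrocyte mean and the astrocyte markers at 18.3%, so that it had the highest sum of the 9 genes and the lowest sum of the astrocyte markers among the neuron sorts. In the other 4 neuron libraries the 9 genes stood at 49.2% to 64.2% and the astrocyte markers at 30.7% to 72.8%, or at 36.5% to 47.7% and 21.8% to 51.6% of the mean of the 6 astrocyte libraries within the limits. The 20 neuron markers summed to 2569 to 5121 CPM in neuron and 112 to 6023 CPM in astrocyte libraries, with 15 to 20 of them read in neuron and 5 to 19 in astrocyte libraries, and the neuron mean was 166% of the astrocyte mean (155% within the limits). The 6023 CPM, above every neuron library, was in Eed+/+ astrocyte replicate 3, outside the limits. In that library the astrocyte markers summed to 13533 CPM and the 9 genes to 2538 CPM. By gene, 15 of the 20 neuron markers had a log2 difference below 0 over both genotypes, but in Eed+/+ cells 12 of 20 were above 0, with a median of 0.53 (6 of 20 and -0.48 within the limits). Whether astrocytes in the neuron sort, free RNA or the neurons' own transcripts gave these reads was not tested.

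Markers of other cells were also read in the astrocyte libraries. The 10 oligodendrocyte lineage markers summed to 135 to 5740 CPM in astrocytes and 1508 to 4105 CPM in neurons. The 10 microglia markers reached 176 CPM at most in neurons, 499 CPM in Eed+/+ astrocytes and 10652 CPM in Eed-/- astrocytes, but 16.2 and 45.9 CPM in the 2 Eed-/- astrocyte libraries within the limits, where 9 of the 10 had no read. The 5 erythroid markers reached 7801 CPM in Eed-/- astrocytes and were all at 0 in those 2 libraries. Of the 4 tested, 3 were called higher in Eed-/- astrocytes than in Eed-/- neurons and 2 in the interaction, and within the limits, where 2 of the 5 were tested, 0 were called in either. The 8 endothelial markers summed to 48.3 CPM at most in any library, and the 8 progenitor markers to 83.4 to 2757 CPM in astrocytes and 1258 to 1744 CPM in neurons. The part of these cells in the differences above was not tested.

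**Figure D4:**
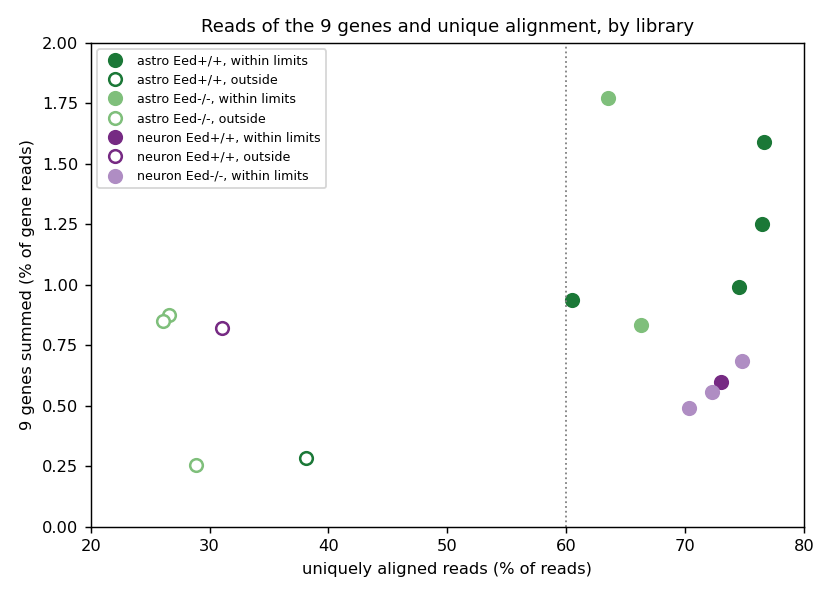
Reads of the 9 genes as a percentage of all gene reads (y axis) against the percentage of uniquely aligned reads (x axis), 1 point per library; filled points are within the alignment limits, open points outside, and the dotted line marks 60%. Filled astrocyte points lie between 0.835% and 1.77% and filled neuron points between 0.489% and 0.685%, while open astrocyte points start at 0.256%.

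None of the 9 genes passed the test between astrocyte genotypes, which with this spread between libraries does not show that they were equal. Of the 9, 0 were called in edgeR between Eed-/- and Eed+/+ astrocytes, and 0 of 8956 genes (0%), with an adjusted p of 0.9999 for each of the 9, and at an unadjusted p under 0.05 the counts were 0 of 9 and 108 of 8956 (1.21%). The median log2 fold change was -0.03 for the 9 genes and -0.54 for all genes, with 4 of 9 and 28.6% of all genes above 0. Fold changes ran from -0.72 (SE 0.94) for Aqp4 to 0.69 (SE 0.87) for Slc1a2, with -0.46 (SE 1.12) for Glul, -0.39 (SE 0.94) for Atp1b2, -0.38 (SE 0.77) for Slc1a3, -0.03 (SE 0.98) for Gja1, 0.28 (SE 1.09) for Slc4a4, 0.55 (SE 1.23) for Kcnj10 and 0.63 (SE 1.58) for Gjb6. Each was smaller than its error. Leaving out Eed-/- astrocyte replicate 2 moved Aqp4 to -1.35, Glul to -1.36, Atp1b2 to -1.11 and Slc1a3 to -0.91. With the 6 libraries within the limits (4 Eed+/+ and 2 Eed-/-) Aqp4 stood at -0.03 (SE 0.45), Slc1a3 at -0.02 (SE 0.52) and Slc1a2 at 0.74 (SE 0.44), and Glul, Gja1 and Atp1b2 changed sign. The median there was 0.24 for the 9 genes and -0.02 for all genes, with 7 of 9 and 48.9% of all genes above 0, so that the lower level of most genes was not seen. No gene of the 9 had all Eed-/- astrocyte libraries above all Eed+/+ ones, nor below them, beside 1 (0.00748%) and 190 (1.42%) of 13367 genes. Within the first run of library numbers the median of the 9 was -0.43 and that of all genes -0.70, and within the second run, where 8 of the 9 passed the filter, they were -0.02 and -0.68.

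In neurons, too, none of the 9 genes was called between Eed-/- and Eed+/+ cells, and 0 of 11862 genes (0%) were. Slc4a4 was lower by the widest margin, with a log2 fold change of -1.72 (SE 0.73; edgeR adjusted p = 0.670), and was the 1 of 9 with an unadjusted p under 0.05, beside 862 of 11862 genes (7.27%). Slc1a2 stood at -1.16 (SE 0.76), Glul at -0.98 (SE 0.62) and Kcnj10 at -0.77 (SE 0.64), and the other 5 between -0.24 and 0.47. The median was -0.24 for the 9 genes and 0.15 for all genes, with 3 of 9 and 55.4% above 0. All 3 Eed-/- neuron libraries lay below both Eed+/+ ones for Glul and Slc4a4, 2 of 9 genes, beside 1022 of 13367 genes (7.65%), and for 0 of 9 they lay above, beside 2086 (15.6%). Over the same libraries 15 of the 20 neuron markers had a positive log2 fold change, with a median of 1.29 (16 of 20 and 0.76 within the limits), 7 had an unadjusted p under 0.05 and 0 were called in edgeR (1 with DESeq2 and 2 without the filter on low counts, all higher in Eed-/- cells), and for 10 all 3 Eed-/- libraries lay above both Eed+/+ ones. Their summed level was 2984 and 4654 CPM in Eed+/+ and 2569 to 5121 CPM in Eed-/- neurons, 1 of the 20 had no read in either Eed+/+ library, and their part in the differences was not tested. Leaving out Eed+/+ neuron replicate 2 brought several fold changes nearer to 0. With replicate 1 alone for Eed+/+ neurons, assumed to vary like the Eed-/- libraries, Slc4a4 moved to -0.78 (SE 0.63), Slc1a2 to -0.12 (SE 0.62) and Glul to -0.34 (SE 0.57). For Glul and Slc4a4, replicate 1 too lay above all 3 Eed-/- libraries. Without Eed+/+ neuron replicate 1 instead, so that replicate 2 alone stood for Eed+/+ neurons under the same assumption, Slc4a4 reached -2.24 (edgeR adjusted p = 0.0211) in a fit that called 2601 of 12635 genes.

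**Figure D5:**
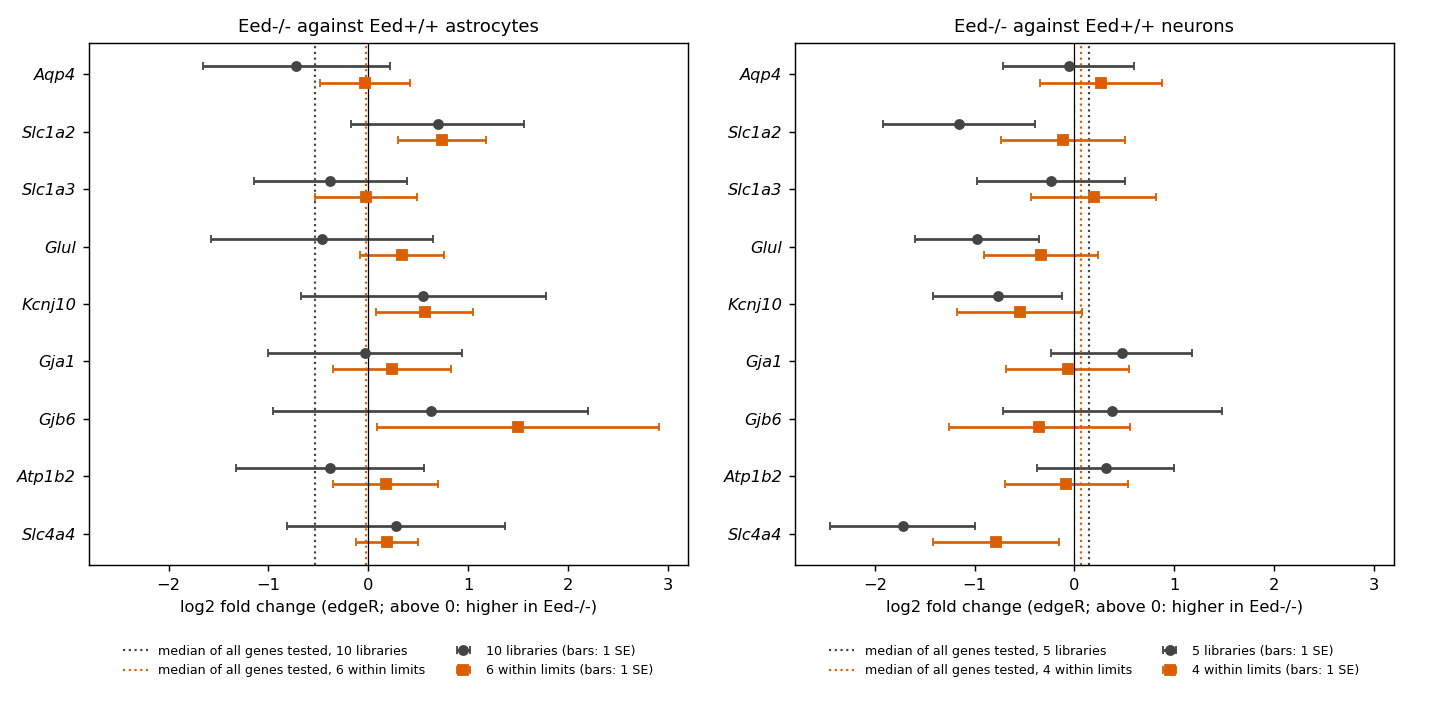
Log2 fold change of each gene between Eed-/- and Eed+/+ cells (x axis, above 0 higher in Eed-/-) in astrocytes (left) and neurons (right), fitted over all libraries (circles) and over those within the alignment limits (squares), with bars of 1 SE and dotted lines at the medians of all genes tested. In astrocytes each bar of the fit over 10 libraries crosses 0, and in neurons the values furthest from 0, for Slc4a4 and Slc1a2, move from -1.72 and -1.16 to -0.78 and -0.12 within the limits.

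Other genes of the same functions were not called between astrocytes and neurons in edgeR. Of 25 further genes of glutamate, potassium, water and bicarbonate handling, among them the glutamate dehydrogenase Glud1, 24 were tested between astrocytes and neurons, 0 were called, and 17 had a positive log2 difference, with a median of 0.50. Within the limits 20 of 24 were positive with a median of 0.88, and 0 were called. Summed over the 25 genes, the neuron level was 92.5% of the astrocyte level, and 41.0% within the limits. Eed+/+ neuron replicate 2 had the highest sum of these 25 genes of all 15 libraries, at 18171 CPM. Of 12 genes with the matching roles in neurons, such as the neuronal glutamate transporter Slc1a1 and the vesicular transporter Slc17a7, 0 of 12 were called, 9 had a negative difference and the median was -1.06, and within the limits 10 of 12 were negative with a median of -1.17. Their summed neuron level was 101% of the astrocyte level (76.4% in Eed+/+ and 131% in Eed-/- cells), and 84.3% within the limits.

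Among the 15 libraries the 9 genes varied together to a limited extent. Pearson's r of log2(CPM + 1) over the 36 pairs had a median of 0.548, from 0.0541 for Glul with Slc4a4 to 0.960 for Aqp4 with Glul, and over the 10 libraries within the limits the median was 0.716. The points share library depth and the scaling, and Aqp4 and Glul both had 0 reads in Eed-/- astrocyte replicate 4, as had Gjb6. Against the mean of the other 8 genes, r was 0.892 for Slc1a3 and 0.834 for Gja1, and lowest for Glul at 0.465 and Slc4a4 at 0.488, which within the limits had 0.935 and 0.703, while Gjb6 went from 0.668 to 0.417 and was then the lowest of the 9. The 5 genes outside the list whose levels followed the mean of the 9 most closely over 15 libraries were Ngef (r = 0.937), Slc39a12 (0.934), a zinc transporter that is on the astrocyte marker list, Tmem136 (0.924), Lrrc42 (0.924) and Vsig10l (0.921).

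Few reads could belong to other genes. Glul overlaps Teddm2 and Mir8114, Slc1a2 the antisense gene Gm13872 and Slc1a3 the gene model Gm37310, for which the 15 libraries held 94, 0, 59 and 129 reads in all. The libraries do not mark strand, so that reads of Slc1a2 and Gm13872, or of Glul and Teddm2 on the opposite strand, cannot be told apart.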

How the data were processed

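RNA of sorted green cells was sequenced with the Smart-Seq v2 protocol. The deposited files hold raw read counts per gene for each library, which the authors made by aligning to mm10 (GRCm38) with STAR, per the labels and the submitters' processing notes. Counts were taken from the column without strand, and lines that name no gene were left out: 8.55% to 71.6% of uniquely aligned reads per library fell in no gene and 0.934% to 5.66% in more than 1. Gene reads per library limit the precision of low values, and floors cover counting error only.

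Counts were scaled by the trimmed mean of M values (TMM) and tested with edgeR 4.0.16 in R 4.3.3 (filterByExpr, robust quasi-likelihood test, two-sided, Benjamini-Hochberg adjusted p under 0.05). Astrocytes and neurons were compared in 1 fit over 15 libraries, and genotypes within each cell type. Alternatives were DESeq2 1.42.0, limma 3.58.1 (voom), RLE size factors, no filter, libraries within the alignment limits, runs of library numbers, a replicate block and leaving out each library. The restriction of the overlap count to libraries within the limits and the second run were chosen after seeing the data. Scripts were tested on simulated counts with the spread fitted to these libraries. Of 200 genes given a 4-fold change, 0% were called in each comparison. At 16-fold, 32.5% were called between cell types, 6.5% between astrocyte genotypes and 80% between neuron genotypes, where 9 unchanged genes were called too. Differences of 4-fold would thus mostly be missed. The genes, lists and tests were chosen with earlier results of these data known. Named genes were the 9 genes, genes of the 2 lists of related functions with an adjusted p under 0.05 between cell types or genotypes in the edgeR fits over all libraries (none), and the 5 genes most like the mean of the 9; other genes are named only as examples of a list. Exon lengths came from GENCODE vM21. The study describes each sample as derived from 1 animal; no label says whether astrocytes and neurons of the same number share one.

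Same-numbered samples deviated with correlations of -0.05 to 0.122 between cell types and -0.248 to 0.159 between genotypes. Results for some listed genes are not reported here.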

Additional observations from a re-analysis of the deposited data

Results flagged for a closer look

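Single libraries stood far from the rest of their group in 4 of the 18 combinations of gene and astrocyte group examined. The cut was a gap to the next value of over 0.71 of the range, which flags about 1 in 20 for independent, normal values. The genes share their libraries and the levels were not log-scaled, so that 4 of 18 cannot be set against that rate. Eed-/- astrocyte replicate 2 was highest for Slc1a3 at 8921 CPM (next 3141), for Atp1b2 at 2816 CPM (next 796) and for Gjb6 at 99.7 CPM (next 10.1). This library was within the alignment limits. Eed+/+ astrocyte replicate 3, outside the limits, was lowest for Slc4a4 at 74.3 CPM (next 483).

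The library whose title and cell type label disagree entered no comparison. Without TMM scaling it had 12106 CPM of Slc1a3, 2781.6 of Atp1b2, 1413.4 of Slc4a4 and 1350.2 of Kcnj10, above the highest Eed+/+ libraries at 6379, 1996, 797.3 and 319.3 CPM. The other 5 genes were not high there: Aqp4 (280 CPM) was below 13 of the 15 libraries with a group, Gja1 (357) and Gjb6 (0) below 10, and Slc1a2 (1757) and Glul (361) below 7. It had 221456 gene reads, and 17.7% of its reads aligned uniquely.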

How the results depend on the processing

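No gene of the 9 was called between astrocytes and neurons or between genotypes in astrocytes under any alternative run. Between astrocytes and neurons the log2 differences stayed above 0 except for Kcnj10 with the replicate block (-0.047) and Gjb6 with limma-voom (-0.024) and when single libraries were left out (from -0.76 without Eed-/- astrocyte replicate 2 to 3.86 without Eed+/+ neuron replicate 1). The number of the 9 genes with astrocyte libraries all above neuron libraries went from 0 to 3 within the limits. For the other genes, leaving out single libraries gave 0.62 to 1.13 for Aqp4, 0.19 to 0.92 for Slc1a2, 0.34 to 0.84 for Slc1a3, 0.028 to 0.74 for Glul, 0.047 to 0.54 for Kcnj10, 0.65 to 1.47 for Gja1, 0.64 to 1.41 for Atp1b2 and 0.14 to 0.80 for Slc4a4, with the lowest value without Eed-/- astrocyte replicate 2 for Aqp4, Slc1a3, Glul and Atp1b2, without Eed+/+ neuron replicate 1 for Slc1a2 and Slc4a4, without replicate 2 of those neurons for Gja1 and without Eed+/+ astrocyte replicate 2 for Kcnj10. Leaving out single libraries, 0 to 1 neuronal counterpart genes were called (1 without Eed-/- astrocyte replicate 5). Between neuron genotypes, 1 of the 25 genes of related functions was called lower in Eed-/- cells with DESeq2 and 1 without the filter.

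Between genotypes in astrocytes, signs changed within the limits for Glul (0.34), Gja1 (0.24) and Atp1b2 (0.18), within the first run for Kcnj10 (-0.41) and Slc4a4 (-0.24), and for Gja1 within the second run (0.21), with RLE (0.11), with DESeq2 (0.086) and over left-out libraries (from -0.41 without Eed-/- astrocyte replicate 2 to 0.35 without Eed+/+ astrocyte replicate 2). Over left-out libraries the others kept their sign, with -1.35 to -0.37 for Aqp4, -1.36 to -0.15 for Glul, -1.11 to -0.076 for Atp1b2, -0.91 to -0.14 for Slc1a3, 0.45 to 0.95 for Slc1a2, 0.33 to 0.99 for Kcnj10, 0.30 to 0.94 for Gjb6 and 0.080 to 0.46 for Slc4a4. In neurons, Aqp4 changed sign without the filter (0.088), with DESeq2 (0.020), limma-voom (0.11), the replicate block (0.15), 1 fit over 15 libraries (0.057) and within the limits (0.27), where Slc1a3 (0.19), Gja1 (-0.069), Gjb6 (-0.35) and Atp1b2 (-0.082) did too. Leaving out single neuron libraries, 0 to 1 of the 9 genes were called, and values ran from -0.27 to 0.27 for Aqp4, -0.51 to 0.19 for Slc1a3, -0.069 to 1.43 for Gja1, -0.52 to 7.46 for Gjb6 and -0.082 to 0.93 for Atp1b2. The higher end for Gja1, Gjb6 and Atp1b2 and the lower for Aqp4 and Slc1a3 came without Eed+/+ neuron replicate 1. Without that library Eed+/+ neurons have 0 reads of Gjb6, so that its values of 7.46 and 3.86 are no measured folds. Without Eed+/+ neuron replicate 2, as within the limits, 1 library stands for Eed+/+ neurons. The causes were not tested.

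Genes called among all tested numbered 2 between cell types (5 with DESeq2, 0 with limma-voom, within the limits or with the replicate block), 0 between astrocyte genotypes (12 with DESeq2, 5 without the filter, 4 in the first run, 46 in 1 fit over 15 libraries) and 0 between neuron genotypes (56 with DESeq2, 127 without the filter, 1 within the limits, 3 in 1 fit), or 0 to 2601 there when single libraries were left out. Correlations of same-numbered samples did not show that numbers pair the samples, and the replicate block called 0 of the 9 genes in each comparison. Depth limits Gjb6 most, and 5 of 15 libraries fell outside the alignment limits.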
